A study of Bos indicus with 9 samples.

Results

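Cytosolic ribosomal protein genes were followed across bovine corpora lutea with and without gonadotropin treatment. A gene was a member when the array's probe table gave its probe set a single symbol made of RPL or RPS, digits and at most 1 letter A, X, Y or L, or the symbol RPLP0, RPLP1, RPLP2 or RPSA. The rule found 87 probe sets of 64 genes, out of 9148 genes with a single symbol. Of these 40 encode proteins of the large ribosomal subunit and 24 proteins of the small subunit. RPLP1, RPS27A, RPS4X and RPL41 were not analysed here. Where a gene had several probe sets, the probe set with the highest mean over the 9 arrays stood for it.

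The ribosome joins amino acids into protein. Its small subunit reads the messenger RNA and its large subunit forms the peptide bond. Each ribosome holds a single copy of nearly every ribosomal protein, so cells make these proteins in matched amounts, largely by controlling translation of their mRNAs. These mRNAs start with a run of pyrimidines, the TOP (terminal oligopyrimidine) motif, through which growth signalling by mTORC1 sets their translation. The corpus luteum, which forms from the ovulated follicle and secretes progesterone, grows fast in its first days and makes large amounts of steroid enzymes.

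The samples came from crossbred Nelore cows (Bos indicus) of 2 to 5 years, kept on pasture with a feed supplement. The cycles of all cows were synchronised by estradiol benzoate together with a device releasing progesterone, and their corpora lutea were taken at slaughter on day 6 after ovulation. Superovulated cows were given equine chorionic gonadotropin (eCG) at 2000 IU, on day 4 counted from the start of synchronisation. Stimulated cows were given it at 400 IU, on day 8. Control cows had no eCG. The hormone comes from the placenta of mares and in cows has the actions of both pituitary gonadotropins. Each group held 3 cows, each measured on 1 Affymetrix array of total RNA, and precision is limited by this small number. Dose and day of eCG differed together, so they cannot be told apart. The labels do not say how many corpora lutea of a superovulated cow entered her sample. In whole tissue, fewer cells of a type and less RNA per cell cannot be told apart.

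Signals are log2 values, and probe sets differ in brightness for reasons other than transcript number, so levels are compared between animals and not between genes. Array medians over all 23974 tested probe sets lay between 4.19 and 4.26. The luteal marker STAR, which brings cholesterol into mitochondria, was bright in every animal. It averaged 14.67 ± 0.13 in superovulated cows, 14.79 ± 0.02 in stimulated cows and 14.76 ± 0.11 in control cows (SD, n = 3 each). LHCGR, on the same list of 7 luteal markers, was much dimmer, with means of 6.56, 6.22 and 6.13 in these groups. Markers of macrophages and other myeloid cells had higher mean signals in treated than in control animals. The mean signal of 9 of 10 listed genes ran from 6.79 to 7.93 in superovulated and from 6.90 to 8.16 in stimulated animals, against 5.28 to 6.49 in control animals. The mean of 3 of 4 listed neutrophil genes ran from 7.68 to 8.27 in superovulated, from 5.25 to 6.18 in stimulated and from 7.51 to 8.69 in control animals. These 3 genes did not move together in superovulated against control animals, where 2 were positive. S100A9 had a difference of 0.68 and the dim MMP9 -1.05. No gene of the myeloid or neutrophil list passed limma at an adjusted p under 0.05. Against control animals the smallest adjusted p of a myeloid gene was 0.393 in stimulated and 0.634 in superovulated animals. For the neutrophil genes it was 0.258 and 0.634. The part of myeloid cells and neutrophils in the ribosomal protein signals was not tested. The difference between the 3' and 5' probe sets of the elongation factor 1 alpha control, a sign of RNA quality, was -1.70 ± 0.11 in superovulated cows, -1.68 ± 0.09 in stimulated cows and -1.83 ± 0.07 in control cows (SD, n = 3 each), and its part was not tested either. For the actin control the same difference averaged -0.40 in superovulated cows, -0.36 in stimulated cows and -0.33 in control cows.

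The probe sets that stood for ribosomal protein genes were mostly among the brightest on the array and varied little from cow to cow. Each was chosen as the brightest of its gene, which favours a high rank for the 16 members with more than 1 probe set. The other 48 members had 1 probe set. Of the 23 probe sets not chosen, 8 had means under 4, 8 between 4 and 8, 5 between 8 and 12 and 2 above 13. Of the 64 members, 61 had a mean signal over 10, at or above the 97.3th percentile of all probe sets, and are called bright members below, a split chosen after the values were seen. A mean over 14 was reached by 43 members. Of all 109 probe sets that bright, 44 (40.4%) belonged to ribosomal protein genes. RPL7, a large-subunit protein, had the brightest probe set of the members, with a mean of 14.98, which does not rank its transcript number. The 3 remaining members, RPL3L, RPL37 and RPS19, had means under 4.

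The spread between animals of the same group was a median SD of 0.035 over the bright members, against 0.15 over all probe sets. Other probe sets also had a smaller spread the brighter they were, above a mean of 8. At mean signals of 14 and above, the median SD was 0.034 for 43 members and 0.058 for 65 other probe sets. Between 13 and 14 it was 0.037 for 16 members and 0.094 for 229 others. Over all 9 animals the signal of a bright member ranged over 0.13 in the median, from 0.041 for RPS13 to 0.30 for RPS27L. Within groups the bright members had a median SD of 0.034 in superovulated, 0.030 in stimulated and 0.014 in control animals.

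**Figure D1:**
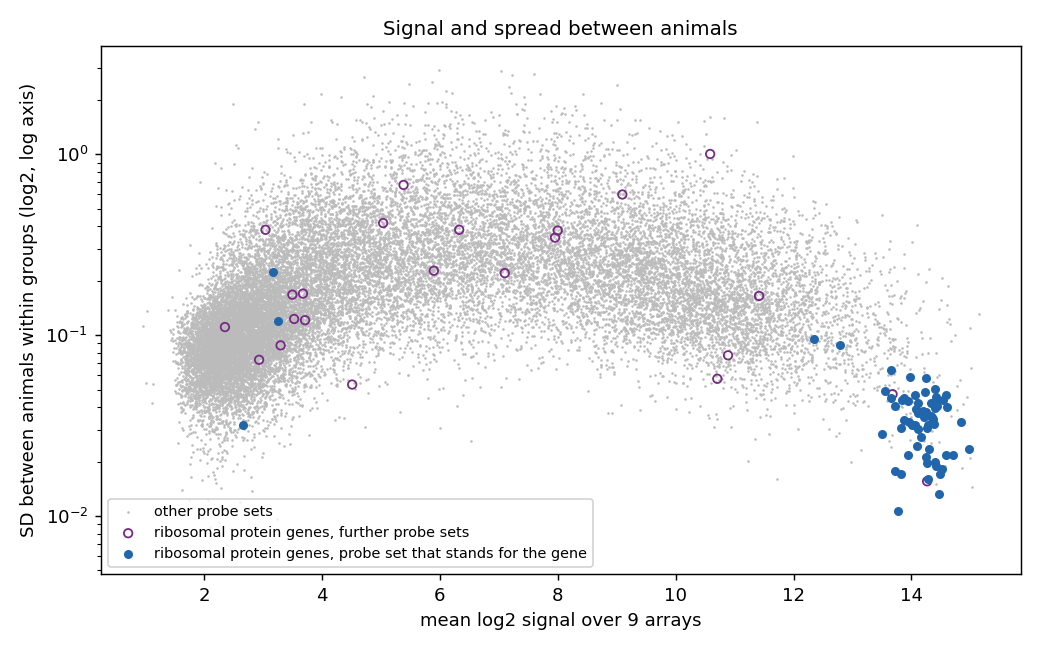
Mean log2 signal over the 9 arrays (x axis) against the SD between animals within groups (y axis, log scale), with 1 point per probe set. Filled points are the probe sets that stand for the 64 ribosomal protein genes, open circles their further probe sets and grey points all others. Most filled points lie at the bright end and low in the cloud, around an SD of 0.035, while 3 lie at the dim end.

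The 3 members with the smallest SD within groups belong to the small subunit. RPS13 had 13.75, 13.76 and 13.78 in superovulated animals, 13.78 in each of the 3 stimulated animals, and 13.78, 13.79 and 13.79 in control animals. RPS18, often used as a reference gene, had 14.45, 14.49 and 14.47 in superovulated, 14.47, 14.45 and 14.47 in stimulated, and 14.46, 14.46 and 14.44 in control animals. RPS29, a small-subunit protein that binds zinc, ranged over 0.053 in all 9 animals. The groups overlapped for RPS13, RPS18 and RPS29 in each of the 3 comparisons. RPL37A and RPS7, also among the 5 members with the lowest SD, had SDs of 0.017 each and did differ in position between groups, as described below.

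Some values were exactly equal between arrays. For 18 of the 64 members (28.1%) at least 2 arrays had exactly the same value, and for 3 members all control animals did. Over all tested probe sets 36.9% had such equal values. RPS26, for example, had the same value of 14.38 in all 3 control animals.

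The mean signal of the 61 bright members was 14.13 ± 0.02 in superovulated cows, 14.16 ± 0.02 in stimulated cows and 14.13 ± 0.01 in control cows (SD, n = 3 each). On the deposited scale single arrays stood out from this level across many genes. Stimulated replicate 3 had the highest signal of all 9 animals for 28 of the 61 members, and superovulated replicate 2 had it for 16. Superovulated replicate 3 had the lowest signal for 26. Control animals were at the top for 6 members in all, 4 of them in control replicate 2. These counts were not repeated under another scaling or over all probe sets, so animal and array scaling cannot be told apart in them. Array medians over all probe sets were lowest in superovulated replicate 3, at 4.19, and highest in stimulated replicate 2, at 4.26.

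**Figure D2:**
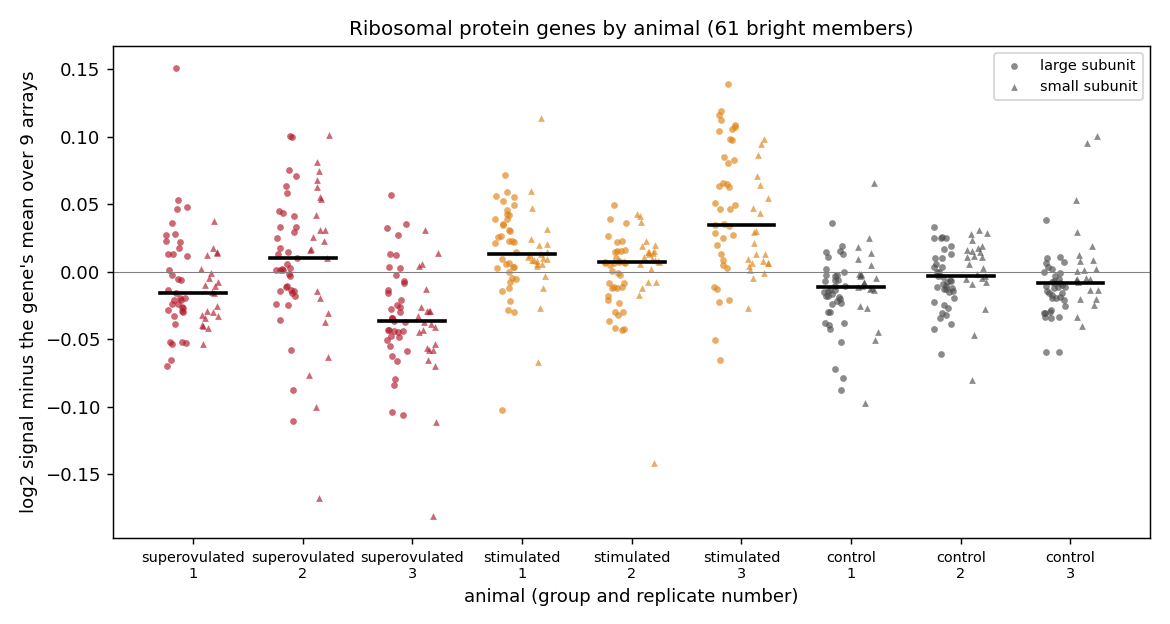
Log2 signal of each of the 61 bright members minus that gene's mean over the 9 arrays (y axis), for each animal (x axis), with circles for large-subunit and triangles for small-subunit genes and a bar at the median. Stimulated replicate 3 lies highest and superovulated replicate 3 lowest, and nearly all points stay within 0.15 of 0.

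Stimulated animals were set against control animals to see what goes with the lower dose of eCG. No ribosomal protein gene passed the limma test at an adjusted p under 0.05, where 0.00417% of all probe sets did, and none had an unadjusted p under 0.05, where 3.67% of probe sets did with higher signal and 2.73% did with lower signal. The smallest adjusted p of a member was 0.832. Small differences still lay mostly on 1 side. Of the 64 members 52 had a positive log2 fold change, against 48.8% of all probe sets, with a median of 0.026 over members and -0.0039 over all probe sets. A median of 0.026 is a change of 1.84%.

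All 3 stimulated animals lay above all 3 controls for 17 members, against 5.79% of all probe sets, and below them for 4 members, against 5.72%. This depends on the scaling of the arrays. When each array was centred on its median, 1 member lay above, against 5.1% of probe sets, and 2 lay below, against 7.81%. The members with a positive value then numbered 44, against 44.8% of probe sets, and their median was 0.014, against -0.017 over all probe sets. When arrays were centred on 51 other probe sets of like brightness, 12 lay above, against 5.76% of probe sets, and 1 below, against 6.64%. There 50 were positive, against 47.8%. On the deposited scale 28 of these 51 other probe sets were positive, with 7 above the controls and 7 below.

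RPL29, a large-subunit protein that also binds heparin, had the highest log2 fold change among bright members. Its signals were 14.13, 14.06 and 14.20 in stimulated animals, against 14.03, 14.04 and 13.997 in control animals. The groups did not overlap, and the difference was 0.10 (SE 0.06, adjusted p = 0.845). RPL14, RPL9 and RPL18, all large-subunit proteins, had differences of 0.072, 0.071 and 0.068 and groups that did not overlap either. Their adjusted p values were 0.884 each. At the other end, RPS28, a small-subunit protein near the path by which mRNA leaves, had -0.068 with overlapping groups. RPL13 had signals of 13.97, 14.07 and 14.08 in stimulated animals, against 14.09, 14.10 and 14.08 in control animals. Stimulated replicate 1 lay lowest and the other stimulated animals just under the controls, for a difference of -0.052 (SE 0.06, adjusted p = 0.909). RPL7 and RPL36A had -0.047 and -0.023, each with all stimulated animals below all controls.

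Superovulated animals, with a higher dose on an earlier day, were set against the same controls. Again no member passed, nor did any probe set (0%), and the smallest adjusted p of a member was 0.797. Before adjustment, limma gave a p under 0.05 to 2 members with higher signal, RPL3L and RPL37, against 2.6% of probe sets, and to 0 with lower signal, against 3.6%. Positive values were found for 28 of 64 members, against 50.8% of all probe sets. The median was -0.0067 over members and 0.0024 over all probe sets, and it turned to 0.0088 when arrays were centred on their medians and to 0.022 when they were centred on probe sets of like brightness. Groups did not overlap for 6 members with higher signal, against 5.18% of probe sets, and for 5 with lower signal, against 5.7%. With arrays centred on their medians these counts were 13, against 7.73%, and 1, against 4.5%, and 42 members were positive, against 55.6%. With arrays centred on probe sets of like brightness they were 17, against 10.4%, and 0, against 4.01%, and 52 members were positive, against 59.4%. The share of positive members and their median thus changed side with the scaling. Over the whole array positive values stayed in the majority and grew in share. Groups without overlap there went from slightly more often lower to more often higher. The medians over all probe sets were 0.018 and 0.031 under these scalings, above those of the members. On the deposited scale 17 of the 51 other probe sets of like brightness were positive, with 1 above the controls and 3 below.

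RPL34 and RPS15 had some of the highest values among bright members. RPL34 had 13.52, 13.58 and 13.52 in superovulated animals, against 13.43, 13.47 and 13.48 in control animals, with no overlap. RPS15, a small-subunit protein of the decoding region, had 14.35, 14.40 and 14.34 in superovulated animals, against 14.23, 14.34 and 14.29 in control animals. Its groups lay side by side without overlap, and the difference was 0.076 (SE 0.06, adjusted p = 0.866). RPL14 had 0.079 with overlapping groups. RPL39, which lines the exit tunnel of the large subunit, had 14.18, 14.29 and 14.23 in superovulated animals, against 14.17, 14.18 and 14.16 in control animals. The groups did not overlap, though superovulated replicate 1 was nearly level with the controls.

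RPLP0 had lower values in all 3 superovulated animals on the deposited scale. Centred on probe sets of like brightness, neither it nor any other member lay wholly below the controls. It forms the base of the stalk that recruits translation factors to the large subunit, and is often used as a reference gene. Its signals were 14.24, 14.26 and 14.23 in superovulated animals, against 14.33, 14.30 and 14.29 in control animals. The difference was -0.063 (SE 0.05, adjusted p = 0.879). A further probe set of RPLP0, almost as bright, had -0.021. RPS28 had -0.11 and RPS27L -0.090, both with overlapping groups. RPL23, a large-subunit protein that can also bind the ubiquitin ligase MDM2, had -0.053, with superovulated replicate 1 at 14.22 above all controls and the other superovulated animals at 14.11.

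Superovulated and stimulated animals differ in the dose and day of eCG. No member passed (smallest adjusted p = 0.426), while 0.00417% of all probe sets did. With an unadjusted p under 0.05, limma gave 1 member with higher signal, RPL3L, against 4.05% of probe sets, and 0 with lower signal, against 5.59%. Positive values were found for 17 of 64 members, against 51.4% of all probe sets. The median difference was -0.033 over members and 0.0053 over all probe sets, and it shrank to -0.0049 when arrays were centred on their medians and to -0.0014 when they were centred on probe sets of like brightness. All superovulated animals lay below all stimulated animals for 11 members, against 6.89%, and above them for 2, against 6.65%. Centred on array medians, 1 lay below, against 5.15%, and 7 above, against 11.4%, and 30 members were positive, against 58.8%. Centred on probe sets of like brightness, 3 lay below, against 5.13%, and 6 above, against 13%, and 31 were positive, against 59.6%. The 51 other probe sets of like brightness also tended lower in superovulated animals on the deposited scale. Of these 11 lay below and 5 above, and 18 were positive, with a median of -0.038.

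RPS27L, a paralogue of RPS27, had the lowest value, -0.15 (SE 0.08, adjusted p = 0.587). Its signals were 12.82, 12.68 and 12.60 in superovulated animals, against 12.89, 12.79 and 12.87 in stimulated animals, and the groups overlapped. RPL29 had -0.11 (SE 0.06, adjusted p = 0.598), with 14.04, 14.04 and 13.97 in superovulated animals, against 14.13, 14.06 and 14.20 in stimulated animals. RPL37A, a zinc-binding protein of the large subunit, had 14.45, 14.42 and 14.42 in superovulated animals, against 14.53, 14.50 and 14.54 in stimulated animals. All superovulated animals lay below all stimulated animals, and the difference was -0.094 (SE 0.05, adjusted p = 0.602). RPLP0 had -0.093 and no overlap. RPL36A, RPL39 and RPL13 lay at the other end, with 0.065, 0.065 and 0.042 and overlapping groups. For RPL36A superovulated replicate 1, at 14.13, stood above the other superovulated animals at 13.97 and 13.94.

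The size of difference these data allow can be read from the intervals of the fit. Among the bright members, log2 fold changes ran from -0.068 to 0.10 for stimulated against control, from -0.11 to 0.079 for superovulated against control and from -0.15 to 0.065 for superovulated against stimulated. Their 95% intervals all lay between -0.26 and 0.25, between -0.30 and 0.22, and between -0.34 and 0.22. The outermost of these bounds, -0.34, stands for a signal 21.0% lower. The median SE was 0.056, and limma widens the spread of these steady genes toward that of the whole array. Over the 3 groups together, the moderated F test passed 0 members and 0.00417% of probe sets. It gave an unadjusted p under 0.05 to 1 member, RPL3L, against 7.68% of probe sets, and RPL3L had an adjusted p of 0.581.

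**Figure D3:**
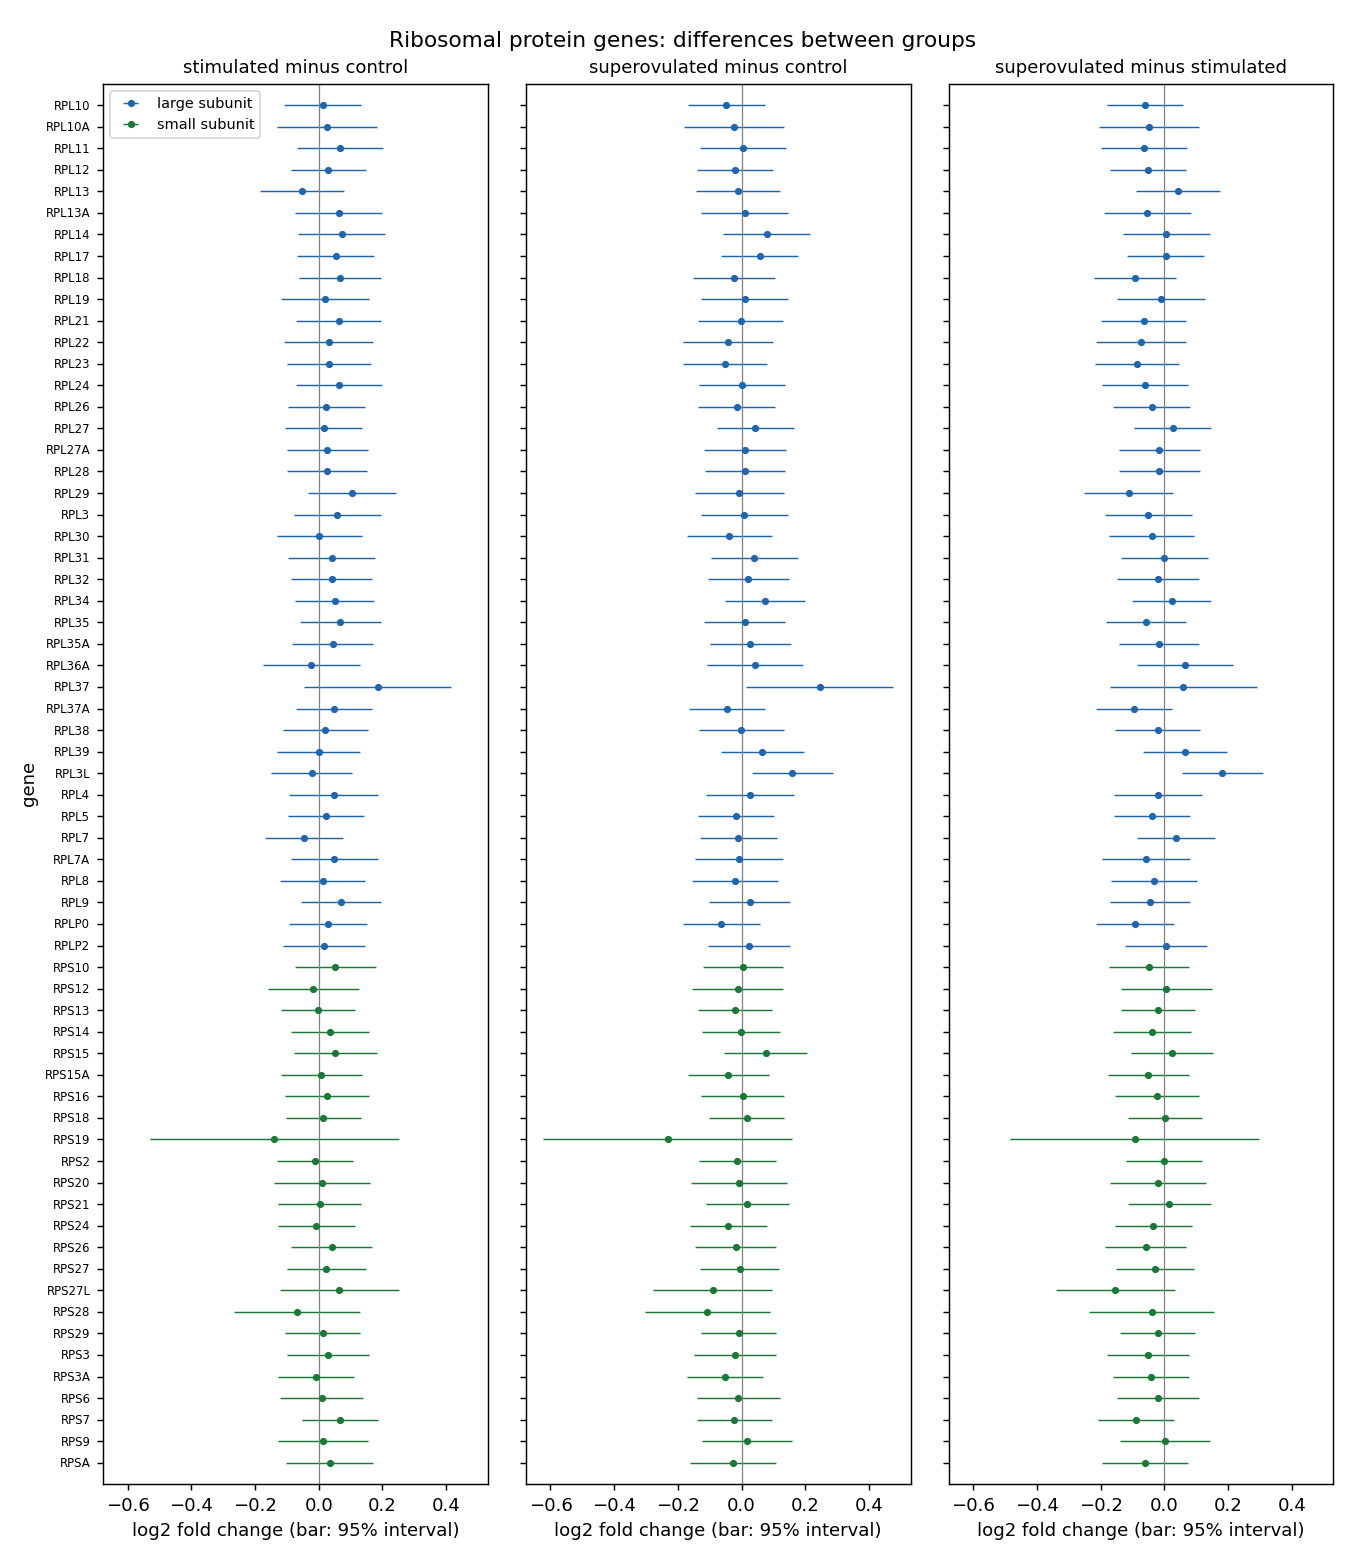
Log2 fold change of each of the 64 members (points) with its 95% interval from the fit (bars), for each of the 3 comparisons, with large-subunit genes above small-subunit genes. Intervals cross 0 except those of RPL37 in superovulated against control and of RPL3L in both superovulated comparisons, and the widest are those of RPS19.

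Several members have known duties beyond the ribosome's core work. RPL5 and RPL11 travel together with a small ribosomal RNA and bind MDM2 when ribosome assembly is disturbed. RPL11 had 14.35, 14.34 and 14.45 in stimulated animals, against 14.30, 14.33 and 14.31 in control animals, a difference of 0.067 without overlap. RPL5 had 0.022 in the same comparison, also without overlap, and -0.017 in superovulated against control animals. RPS7, which can bind MDM2 too, had 13.81, 13.79 and 13.77 in superovulated, 13.87, 13.86 and 13.89 in stimulated, and 13.81, 13.80 and 13.82 in control animals. Its stimulated animals stood above all others, by 0.066 against control animals (SE 0.05, adjusted p = 0.884).

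RPS6, the small-subunit protein that is phosphorylated by a kinase downstream of mTORC1, had log2 fold changes of 0.0089 for stimulated and -0.0098 for superovulated against control animals. RPSA, a small-subunit protein also known as the laminin receptor, had 0.034 and -0.027. RPL3, at the site of peptide bond formation, had 0.059 and 0.0088. RPLP2, a stalk protein bound to RPLP0, had 0.018 and 0.024. RPL22, which in mice also serves T cell development, had 0.031 and -0.042. RPS27 had 0.023 and -0.0063. RPL10, which joins the large subunit late in its assembly, had 0.012 and -0.047. On the deposited scale all 3 superovulated animals lay below all controls for RPL10. Centred on probe sets of like brightness, no member lay wholly below the controls. RPL10A, part of the mobile stalk where spent transfer RNA leaves, had 13.58, 13.74 and 13.54 in superovulated animals, against 13.64, 13.66 and 13.63 in control animals. Its spread within the superovulated group, an SD of 0.11, was wider than in stimulated animals (0.016) and in control animals (0.015).

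In each comparison the highest log2 fold change of any member belonged to a dim probe set. RPL3L is a paralogue of RPL3 found mainly in skeletal and heart muscle. It had 2.81, 2.78 and 2.75 in superovulated, 2.56, 2.64 and 2.59 in stimulated, and 2.64, 2.61 and 2.61 in control animals. All superovulated animals lay above the other 6, with differences of 0.16 against control animals (SE 0.05, adjusted p = 0.797) and 0.18 against stimulated animals (SE 0.05, adjusted p = 0.426). With 23.5% of probe sets below its mean, it stood in the dim part of the array.

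RPL37 and RPS19 encode proteins of every ribosome, and RPS19 is needed to mature the small subunit. RPL37 had 3.39, 3.28 and 3.41 in superovulated, 3.21, 3.40 and 3.28 in stimulated, and 3.28, 2.94 and 3.11 in control animals. Its difference was 0.25 for superovulated (SE 0.10, adjusted p = 0.802) and 0.19 for stimulated against control animals, and the low value of control replicate 2 stood out. RPS19 had 3.23, 2.84 and 3.10 in superovulated, 2.99, 2.94 and 3.53 in stimulated, and 3.22, 3.27 and 3.38 in control animals. Its differences of -0.23 and -0.14 against control animals came with overlapping groups and the widest spread of any member (SD 0.22). The second probe set of RPS19 was dimmer still, with a mean of 2.36. How far these dim probe sets report their transcripts was not tested.

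**Figure D4:**
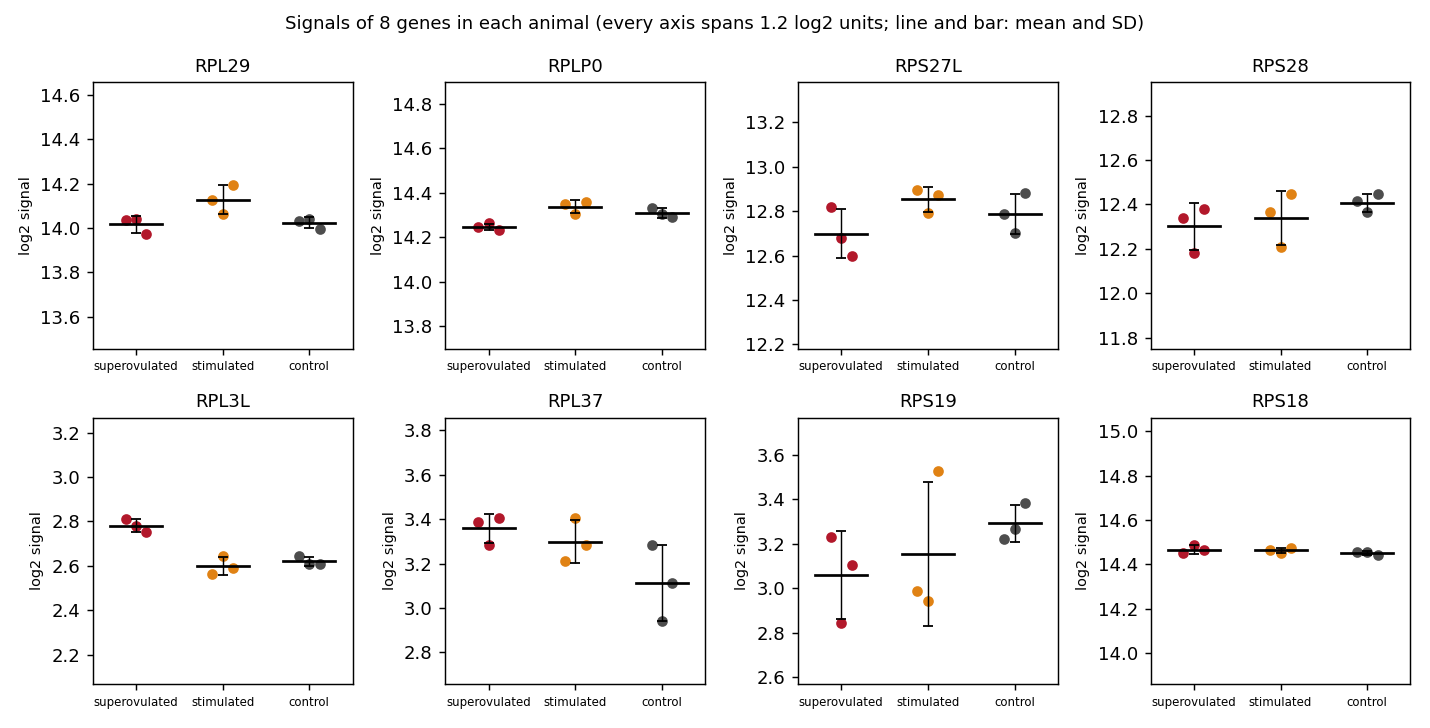
Log2 signals of 8 genes (y axes, all spanning the same width) in superovulated, stimulated and control animals (x axis), with 1 point per animal, a line at the mean and a bar for the SD (n = 3). RPL3L lies higher in the 3 superovulated animals, RPLP0 lower, and RPS18 is level in all 9.

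Some members were also measured by further probe sets. Of the 64 members 16 had more than 1 probe set, which left 23 probe sets that did not stand for their gene. Their median SD within groups was 0.17. By mean signal 8 lay under 4, 8 between 4 and 8, 5 between 8 and 12, and 2 above 13. None passed the limma test (smallest adjusted p = 0.831, 0.759 and 0.451 for stimulated against control, superovulated against control and superovulated against stimulated). At an unadjusted p under 0.05 their counts were 0, 3 and 3 of 23 in these comparisons, against 6.39%, 6.2% and 9.64% of all probe sets. They had the sign of the brighter probe set in 10, 13 and 13 cases out of 23.

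RPL32 had the further probe sets with the widest ranges over the 9 animals. Its bright probe set had signals from 13.93 to 14.03. The dimmest of its probe sets ran from 4.42 to 6.81, a range of 2.39. The other, with a range of 2.35, had 11.29, 9.28 and 11.25 in superovulated, 9.98, 11.44 and 11.63 in stimulated, and 9.90, 9.33 and 11.17 in control animals. The values of this brighter one fell into a low and a high cluster that cut across all 3 groups. RPL24 had a second probe set with 11.21, 11.40 and 11.08 in superovulated animals, against 11.81, 11.41 and 11.62 in control animals. That is a difference of -0.39, while its bright probe set had 0.0019. For RPL10 both bright probe sets pointed the same way. The second had 13.53, 13.65 and 13.59 in superovulated animals, against 13.73, 13.72 and 13.67 in control animals. That is a difference of -0.12 without overlap, on the deposited scale. RPS27L had a dim probe set at 2.93, 2.42 and 2.02 in superovulated, 3.11, 2.97 and 3.78 in stimulated, and 3.38, 3.60 and 3.18 in control animals. There the difference from control animals was -0.93, against -0.090 for the bright probe set. RPS3, a small-subunit protein at the mRNA entry, had further probe sets with means of 10.89 and 10.71 and differences of -0.043 and 0.14 from control animals in superovulated animals. RPL24, RPL32 and RPS3, like RPS26 above, were chosen after their values were seen.

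**Figure D5:**
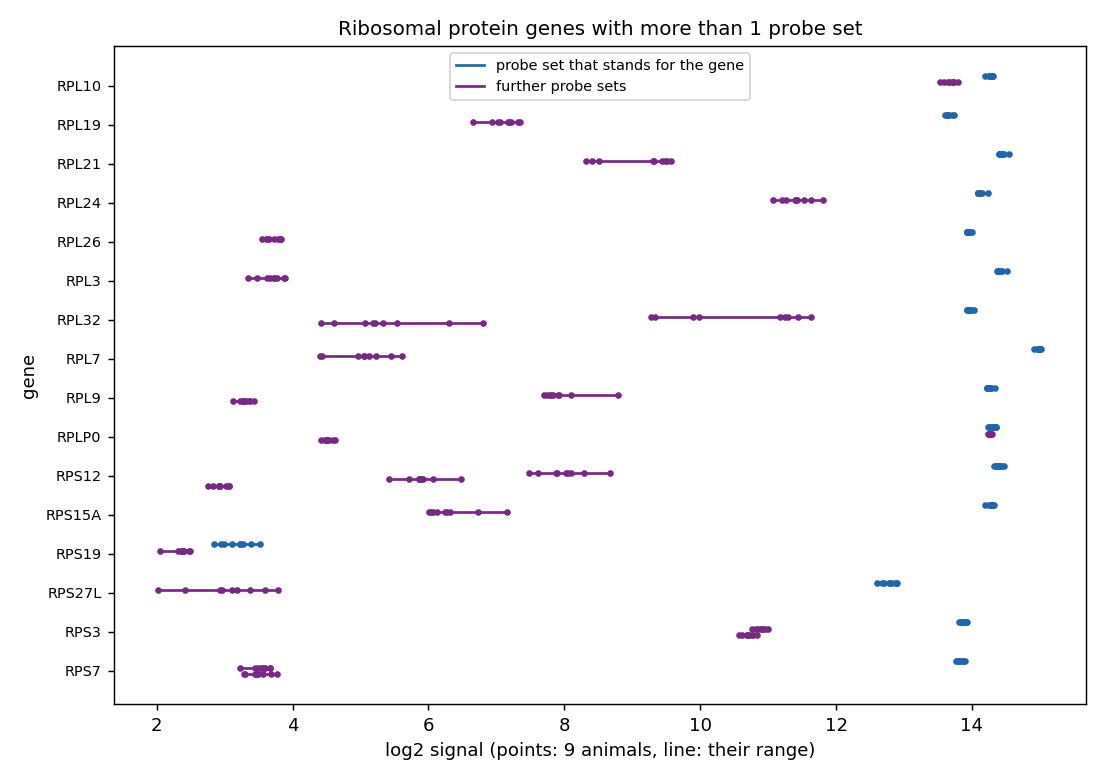
Log2 signals (x axis) of every probe set of the 16 members with more than 1 (y axis), with points for the 9 animals and a line for their range, coloured by whether the probe set stands for its gene. The bright probe sets form tight groups near 14, and the further probe sets of RPL32 spread over up to 2.39 log2 units.

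Large-subunit and small-subunit genes were also set against each other. In stimulated against control animals 35 of 40 large-subunit and 17 of 24 small-subunit members were positive, with mean log2 fold changes of 0.036 and 0.0099. On the deposited scale 14 large-subunit and 3 small-subunit members lay wholly above the controls, against 5.79% of all probe sets. With arrays centred on their medians, 1 of the 64 members did, against 5.1%. In superovulated against control animals 22 of 40 and 6 of 24 were positive, with means of 0.014 and -0.025. In superovulated against stimulated animals the means were -0.023 and -0.035, with 12 and 5 positive.

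The large subunit thus stood above the small one in mean change by 0.026, 0.038 and 0.012 in these comparisons. Without the 3 dim members the gaps were 0.018, 0.019 and 0.0019. Per animal, the mean of bright large-subunit members minus that of bright small-subunit members was 0.16, 0.15 and 0.16 in superovulated, 0.15, 0.14 and 0.17 in stimulated, and 0.14, 0.14 and 0.13 in control animals. Every treated animal lay above every control animal, though the lowest stimulated animal, at 0.143, was close to the highest control, at 0.141. This is a description of these 9 animals and carries no test.

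Other genes of protein synthesis were set beside the members. None of the measured genes in the lists below passed the limma test in either direction in any comparison. At an unadjusted p under 0.05, the most genes with higher signal were 4 of 67, in the ribosome assembly list and in the mitochondrial list, and the most with lower signal 3 of 26, in the mTORC1 list. Larger shares came from shorter lists, with 3 of 31 initiation factors higher and 1 lower. Of 14 factors of the new peptide chain 2 were higher and 0 lower. All of these were in superovulated against stimulated animals, where 4.05% of probe sets had higher and 5.59% lower signal at that p. Among 4 of 8 listed genes of ribosomal proteins outside the symbol rule, FAU, which encodes a small-subunit protein fused to a ubiquitin-like part, had 13.54, 13.61 and 13.56 in superovulated, 13.69, 13.68 and 13.71 in stimulated, and 13.61, 13.58 and 13.60 in control animals. All stimulated animals stood above all others, by 0.096 against control animals (SE 0.05, adjusted p = 0.836). RACK1, a signalling scaffold on the small subunit, had 0.022 in the same comparison.

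Other genes whose mRNAs carry a TOP motif, 16 of 20 listed, were counted on the deposited scale only. Their median was 0.040 for stimulated against control animals, with 12 positive, against 48.8% of all probe sets. The median was 0.011 for superovulated against control animals, with 9 positive, against 50.8% of all probe sets. It was -0.048 for superovulated against stimulated animals, with 4 positive, against 51.4%. Among them EIF4B, which helps unwind mRNA for initiation, had 0.17 (SE 0.08, adjusted p = 0.798) and BTF3, a subunit of the complex that binds new peptide chains, 0.14 (SE 0.07, adjusted p = 0.799) in stimulated against control animals.

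Initiation factors, 31 of 37 listed, had medians of 0.015 for stimulated against control, 0.015 for superovulated against control and -0.0076 for superovulated against stimulated animals. EIF3B, a core subunit of the factor that prepares the small subunit, had -0.18 (SE 0.08) in stimulated and 0.28 (SE 0.08) in superovulated against control animals, and 0.46 between the treated groups (adjusted p = 0.276). Elongation and release factors, 10 of 13 listed, had medians of -0.020, 0.039 and 0.00085. GSPT1, a release factor, had 0.25 (SE 0.10, adjusted p = 0.504) in superovulated against stimulated animals. Factors of the new peptide chain, 14 of 16 listed, had medians of -0.019, 0.036 and 0.071, with SEC61G, part of the channel into the endoplasmic reticulum, at -0.25 in stimulated against control animals (SE 0.07, adjusted p = 0.597).

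Genes of ribosome assembly, 67 of 85 listed, had medians of 0.016, 0.045 and 0.040. MDN1, which removes assembly factors from the large subunit, had -0.96 (SE 0.28, adjusted p = 0.759) in superovulated against control animals, and EMG1, which modifies ribosomal RNA, had 0.45 (SE 0.10, adjusted p = 0.336) in superovulated against stimulated animals. RNA polymerase I and III genes, 27 of 42 listed, had medians of -0.032, -0.032 and 0.054. Genes of the mTORC1 pathway and of TOP mRNA binding, 26 of 31 listed, had medians of -0.033, -0.024 and 0.014. There TSC1, which restrains mTORC1, had -0.74 (SE 0.19, adjusted p = 0.717) in superovulated against control animals. Its mean signals were low, at 3.80 and 4.54, and how far its probe set reports the transcript was not tested. RRAGC, which relays amino acid supply to mTORC1, had 0.33 (SE 0.09, adjusted p = 0.606) in stimulated against control animals.

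Mitochondrial ribosomal protein genes, 67 in number, had medians of -0.096, -0.021 and 0.041 in the 3 comparisons. In stimulated against control animals 20 of them were positive on the deposited scale, where 52 of 64 cytosolic members and 48.8% of all probe sets were. With arrays centred on their medians 44 cytosolic members were positive, against 44.8% of probe sets. The mitochondrial genes were counted on the deposited scale only. MRPS24 had -0.29 (SE 0.10, adjusted p = 0.704) in stimulated against control animals. Their median SD within groups was 0.19 at a median signal of 10.53, and other probe sets with means of 10 to 12 had a median SD of 0.16. The difference between the cytosolic and mitochondrial lists was not tested.

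The genes outside the lists whose signals followed the median of the members most closely over the 9 arrays, after group means were taken out, were FAAP20, SELENOK, TXNDC9 and IFT20, with Pearson correlations of 0.97, 0.96, 0.96 and 0.96. EEF1E1, a component of the aminoacyl-tRNA synthetase complex, had 0.97. Of these 5 genes, FAAP20, SELENOK, TXNDC9 and IFT20 were lowest in superovulated replicate 3, and EEF1E1 was lowest in stimulated replicate 2. EEF1E1 had 10.53, 10.58 and 10.17 in superovulated, 10.37, 10.11 and 10.34 in stimulated, and 10.35, 10.42 and 10.37 in control animals. These correlations rank 5 out of all named genes on 9 arrays and describe them only.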

How the data were processed

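Luteal RNA of 9 cows was measured on 1 Affymetrix bovine array each, per the labels' protocols. The deposited table holds digits with no decimal mark, an other unit than the log2 signals they were read as. How the authors summarised and normalised the arrays is not given in the sources used here. Decimal marks were restored so that no log2 signal passed 16, the most a scanner records. Digits that begin with 1 allow 1.x and 1x.x, which left 15.5% of values open. Other arrays settled 1588 probe sets. Probe sets open on all 9 arrays were placed by their spread at a posterior probability of 0.95, which gave 2984 as 1x.x, 4 as 1.x and 43 undecided, with 0.68 wrong readings expected. All 66 member probe sets open on all arrays were read as 1x.x. Reading the values as log2 signals rests on their range of 0.85 to 15.36. Of 24016 non-control probe sets 13292 carry 1 symbol. Symbols of 63 members also stand in RefSeq's table.

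limma 3.58.1 (R 4.3.3) (lmFit, eBayes) took all 9 arrays in 1 model of group means, which leaves 6 residual degrees of freedom. The 2-sided p-values were adjusted by Benjamini-Hochberg over 23974 probe sets, and the model was tested on simulated data. Named members are the 5 highest and 5 lowest per comparison, the 5 with the lowest and highest SD, the 5 with the smallest F test p, and a fixed set of known genes. Up to 2 genes with the smallest p were named per list, and RNA polymerase genes and cell type markers were summarised. Members and lists were chosen with earlier results of these data known. Other normalisations, decimal readings, spread models, a replicate block and left-out arrays were tried. No sequences are shown.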

Additional observations from a re-analysis of the deposited data

How the results depend on the processing

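In all 75 recalculations of the member counts (other scaling, filters, decimal readings, spread models, 6-array fits, the replicate block and each array left out), limma called 0 members. The smallest adjusted p of a member in them was 0.382, and at most 4 members had an unadjusted p under 0.05. The median difference of superovulated from stimulated animals was -0.0088 under quantile normalisation, -0.0049 centred on array medians and -0.0014 centred on probe sets of like brightness. That of superovulated from control animals was 0.022 centred on probe sets of like brightness. Probe sets with no open digit run left 3 members, all dim, with medians of -0.022 for stimulated against control, 0.16 for superovulated against control and 0.060 for superovulated against stimulated animals, and with large minus small gaps of 0.22, 0.43 and 0.21. Fewer genes make these values. Without the 3 dim members, an alternative chosen after seeing the data, the gaps for superovulated against control and against stimulated animals were 0.019 and 0.0019. With each array left out in turn the median ran from 0.018 to 0.031 for stimulated against control, from -0.019 to 0.0098 for superovulated against control and from -0.042 to -0.017 for superovulated against stimulated animals. The direction for superovulated against control animals turned without superovulated replicate 1 (0.0025) or 3 (0.0098). The gap ran from 0.021 to 0.032, from 0.033 to 0.044 and from 0.010 to 0.015. Of 1734 values of named members under these alternatives 80 changed sign, and 0 passed. Replicate numbers are shared between groups in the labels, and deviations of same-numbered animals correlated between -0.031 and 0.38 over probe sets. Of 9 such correlations 7 were over 0.1, among them all 3 between superovulated and stimulated animals (0.20, 0.38 and 0.15), and 5 of 9 arrays correlated best with both arrays of their own number. This is a hint of pairing from the data. Since 2 correlations with control animals were lower (0.086 and -0.031), the numbers were not taken to pair all groups. With the replicate block 0 members passed in each comparison, and the median changes stayed at 0.026, -0.0067 and -0.033. Over all probe sets, calls for stimulated against control animals numbered 1 as reported, 3 with the block, 2 without control replicate 2, 4 without superovulated replicate 3 and 0 without stimulated replicate 3. For superovulated against stimulated animals they numbered 1 as reported, 3 without superovulated replicate 1 and 1 or 2 under the other alternatives. For superovulated against control animals they numbered 0 as reported and 1 without stimulated replicate 3 or in the fit of these 6 arrays. Bright members lie near the top of the signal range, and whether their probes were saturated was not tested.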
